A study of Mus musculus with 14 samples.

Results

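The regions described here are the stretches of accessible chromatin at 9 loci that encode inhibitory receptors or ectonucleotidases: Pdcd1, Tigit, Lag3, Havcr2, Btla, Cd96, Cd200, Entpd1 and Nt5e. A region was assigned to a locus when its midpoint lay within the gene or had that gene's transcription start as the nearest start of a protein-coding gene in GRCm38. This rule uses position alone and gave 102 of the 67254 regions measured. Of these, 99 passed the filter on low counts and were among the 61366 regions tested, and the other 3, at Tigit, Btla and Cd200, had at most 1.54 CPM on average (a region's count scaled to a library total of 1000000).

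The regions come from bulk ATAC-seq of splenic Tregs, an assay in which a transposase inserts adaptors where chromatin is open, so that a higher count marks a more accessible region. cTregs (CD44- in the labels) and eTregs (CD44+) were sorted as CD45.2+ CD4+ Foxp3-YFP+ cells from mixed BM chimeras on the C57BL/6 background. There were 3 control and 4 Atg14-deficient libraries of cTregs, and as many of eTregs. In the Atg14-deficient groups the CD45.2+ donor BM was Foxp3Cre Atg14fl/fl, and in the control groups it was Foxp3Cre Atg14+/fl, so that every group carried the Cre-YFP allele driven from Foxp3 and at least 1 floxed Atg14 allele. Cre driven from Foxp3 is meant to delete Atg14 in Tregs. The study states that some of its Foxp3Cre Atg14fl/fl mice also carried an Atg14+/- or Atg14-/- allele. It reports no notable differences from these alleles and does not say which experiments used such mice. The donor BM was mixed at 1 to 1 with CD45.1+ WT BM and given to sublethally irradiated Rag1-/- mice, which lack their own T and B cells, and 6 to 8 weeks were left for reconstitution. The labels give no ages. The number of libraries in each group equals the number of chimeras that the study gives for its genotype, and the labels do not tie a library to a mouse.

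Inhibitory receptors are surface proteins that dampen signalling, and T cells raise many of them upon stimulation. PD-1 (Pdcd1) recruits tyrosine phosphatases to the antigen receptor, LAG-3 binds MHC class II, TIM-3 (Havcr2) binds galectin-9 and other ligands, and BTLA binds HVEM. TIGIT and CD96 compete with the costimulatory receptor CD226 for nectin family ligands, and CD200 is itself the ligand of the inhibitory receptor CD200R1. The ectonucleotidases CD39 (Entpd1) and CD73 (Nt5e) act in sequence, CD39 degrading extracellular ATP to AMP and CD73 turning AMP into adenosine, by which Tregs can suppress cells that carry adenosine receptors.

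The sequences below are those of the 5 regions that differed between eTregs and cTregs in both genotypes, and of the promoters of Cd200 and Havcr2, whose regions are described further down. For the 5 regions the central 200 bases are given on the + strand of GRCm38.p6: chr1:94042365-94042564 (an intron of Pdcd1), chr16:43661603-43661802 (an intron of Tigit), chr16:45261465-45261664 (past the 3′ end of Btla), chr9:88273388-88273587 (upstream of Nt5e) and chr9:88357155-88357354 (an intron of Nt5e). The promoters are the 300 bases around the RefSeq start in GRCm38.p6, chr16:45409004-45409303 on the - strand for Cd200 and chr11:46454681-46454980 on the + strand for Havcr2. Capitals mark exact matches, on either strand, to the letters of 10 motifs searched. The activation-linked factors were searched as TGANTCA for AP-1, as TGGAAA for NFAT and as AAAGGTCA for NR4A. The lineage factors were searched as TGTGGTT for RUNX, as AGGAAGT for the ETS family, as TGTTTAC for forkhead factors, as AGATAA for the GATA family and as AGGTGTGA for T-box factors. Factors of the quiescent state were searched as ATCAAAG for TCF/LEF and as GGGTGTG for the KLF family.
Pdcd1 intron: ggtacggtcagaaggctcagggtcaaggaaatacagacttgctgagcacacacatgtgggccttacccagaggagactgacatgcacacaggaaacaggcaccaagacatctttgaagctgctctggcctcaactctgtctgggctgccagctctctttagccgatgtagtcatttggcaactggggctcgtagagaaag
Tigit intron: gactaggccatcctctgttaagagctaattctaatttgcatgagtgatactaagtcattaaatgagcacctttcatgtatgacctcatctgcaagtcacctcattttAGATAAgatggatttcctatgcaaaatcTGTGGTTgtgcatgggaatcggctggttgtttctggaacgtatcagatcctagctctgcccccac
Btla downstream: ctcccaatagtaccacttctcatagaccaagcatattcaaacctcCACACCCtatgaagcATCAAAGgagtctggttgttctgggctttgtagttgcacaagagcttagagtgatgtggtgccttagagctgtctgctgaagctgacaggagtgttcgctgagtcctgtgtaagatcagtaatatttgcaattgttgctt
Nt5e upstream: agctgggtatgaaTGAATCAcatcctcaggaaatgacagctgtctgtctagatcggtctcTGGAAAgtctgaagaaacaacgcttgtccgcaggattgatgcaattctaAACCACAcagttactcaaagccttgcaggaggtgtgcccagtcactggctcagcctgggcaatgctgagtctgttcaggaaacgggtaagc
Nt5e intron: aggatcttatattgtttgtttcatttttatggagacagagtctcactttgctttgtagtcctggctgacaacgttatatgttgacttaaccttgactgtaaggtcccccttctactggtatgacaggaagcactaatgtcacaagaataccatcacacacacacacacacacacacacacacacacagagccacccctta
Cd200 promoter: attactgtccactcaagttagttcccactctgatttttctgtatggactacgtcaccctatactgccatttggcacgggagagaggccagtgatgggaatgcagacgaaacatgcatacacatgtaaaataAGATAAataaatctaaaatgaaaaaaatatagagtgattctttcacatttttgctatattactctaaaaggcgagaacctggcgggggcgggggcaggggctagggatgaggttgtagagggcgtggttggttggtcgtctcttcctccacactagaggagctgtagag
Havcr2 promoter: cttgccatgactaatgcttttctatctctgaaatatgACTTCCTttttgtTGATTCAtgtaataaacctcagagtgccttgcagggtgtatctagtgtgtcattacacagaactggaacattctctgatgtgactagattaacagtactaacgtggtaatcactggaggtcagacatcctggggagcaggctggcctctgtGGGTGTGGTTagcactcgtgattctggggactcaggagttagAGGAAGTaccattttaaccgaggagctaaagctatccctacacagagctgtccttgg

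The Nt5e upstream region held an AP-1, an NFAT and a RUNX match, and the Tigit intron held a GATA and a RUNX match. Past Btla there were a KLF and a TCF/LEF match, and the intronic regions of Pdcd1 and Nt5e held none of the 10. The Cd200 promoter held a GATA match. In the Havcr2 promoter the KLF and RUNX matches share letters, and there are also an AP-1 and 2 ETS matches. Such matches are common: of the 67207 regions on chromosomes, the central 200 bases of 11.6% held the AP-1 letters, 16.6% NFAT, 10.2% RUNX, 8.79% GATA, 6.90% KLF and 3.83% TCF/LEF. Among the 32851 promoters of the RefSeq table outside chromosome 18, 7.81% held AP-1, 9.35% ETS, 7.95% KLF, 5.27% RUNX and 11.2% GATA. A match describes letters and does not show that a factor binds. Of the 9 loci, 8 have a promoter in that table; Lag3 does not.

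Total counts ranged from 2242983 to 5548189 per library, and 51.9% to 58.5% of them lay within 1 kb of a transcription start. The tested regions of the 9 loci had mean counts between 5.29 and 271 per library, with a median of 31.9. Of the 5 regions assigned to Atg14, 0 passed the adjusted threshold between genotypes (smallest adjusted p in edgeR 0.428), although accessibility does not measure whether an exon was deleted. Regions at the starts of 3 of 4 Treg markers (Il2ra, Ikzf2 and Ctla4) were found, but none at the start of Foxp3 itself. These starts summed to 109 to 119 CPM in control cTregs and 80.0 to 87.4 in control eTregs, and to 123 to 149 in Atg14-deficient cTregs and 103 to 107 in Atg14-deficient eTregs, so that the cell states did not overlap in either genotype, nor the genotypes in either cell state. Of the 74 tested regions of the Treg list, 2 were more and 6 less accessible in control eTregs, and 7 more and 6 less in Atg14-deficient eTregs. The start regions of 5 cTreg markers (Ccr7, Tcf7, Lef1, Klf2 and S1pr1) summed to 298 to 365 CPM in control cTregs and 192 to 217 in control eTregs, and 19 of the 113 tested regions of these genes were less accessible in control eTregs and 0 more. In Atg14-deficient cells these sums were 330 to 419 CPM in cTregs and 254 to 299 in eTregs, with 14 regions less and 1 more accessible. The eTreg markers with a start region (6 of 7) summed to 280 to 308 CPM in control cTregs and 266 to 272 in control eTregs, against the labels, while 10 of their 169 tested regions were more and 8 less accessible in control eTregs, 5 of the 10 at Il10. In Atg14-deficient cells the eTreg list summed to 274 to 330 CPM in cTregs and 252 to 299 in eTregs, with 12 regions more and 15 less accessible. None of 4 B cell markers and 1 of 4 myeloid markers (3.12 to 5.86 CPM in controls) had a start region. Of the CD8 T cell markers, Cd8a had no start region and Cd8b1 one with 15.6 to 16.9 CPM in control cTregs and 2.62 to 6.83 in control eTregs, and with 10.3 to 21.4 in Atg14-deficient cTregs and 1.54 to 6.35 in Atg14-deficient eTregs. The NK cell markers with a start region (2 of 3) summed to 15.2 to 21.0 CPM in control cTregs and 14.3 to 20.5 in control eTregs. In Atg14-deficient cells the NK sums were 13.9 to 21.0 CPM in cTregs and 9.3 to 21.6 in eTregs. Of the 25 tested regions of the NK list, 2 were called less accessible in control eTregs and 5 in Atg14-deficient eTregs. Of the 5 tested regions of the CD8 T cell list, 2 were less accessible in eTregs of each genotype. In the B cell list 1 of 6 regions, at Pax5, was more accessible in eTregs of both genotypes. The part of these markers in the results below was not tested. In bulk libraries, more cells with an open region and a region that is more open in each cell cannot be told apart.

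The first comparison asked which regions differ between the naive-like cTreg state and the activated eTreg state. In controls, 7 of the 99 tested regions passed an adjusted p of 0.05 with a log2 fold change beyond 0.5 in edgeR's quasi-likelihood test: 3 were more accessible in eTregs, at Pdcd1, Tigit and Nt5e, and 4 were less accessible, at Lag3, Btla and (2 of them) Nt5e. Over all tested regions the rule called 5.30%, with 2.01% more and 3.29% less accessible. In Atg14-deficient cells, 16 of 99 passed, 8 more accessible and 8 less, where the rule called 9.81% of all tested regions, 4.41% more and 5.40% less. The 8 more accessible ones lay at Pdcd1 (2), Tigit (2), Lag3 (1) and Nt5e (3), and the 8 less accessible ones at Pdcd1 (1), Btla (2), Cd96 (1), Cd200 (3) and Nt5e (1). In all 5 regions called in both genotypes the direction was the same, and the 11 called only in Atg14-deficient cells had the same sign in controls. For all tested regions, the share called in both genotypes and the share alike in sign are not given here. The cell state effect itself did not differ between genotypes at the adjusted threshold in any of the 99 regions (smallest adjusted p 0.9999 in edgeR).

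These counts rested on single libraries, as did those of the whole table. Without control cTreg replicate 1 the control count fell to 1, without replicate 3 to 4, and without control eTreg replicate 1 or 2 to 3. The share called over the whole table fell from 5.30% to 1.75%, 2.44%, 2.12% and 2.69% under the same 4 omissions. In Atg14-deficient cells the count was 7 without cTreg replicate 3 and 8 without cTreg replicate 1, cTreg replicate 2, eTreg replicate 1 or eTreg replicate 4. There the whole table's share fell from 9.81% to 4.62%, 6.82%, 6.75%, 6.10% and 5.79%.

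Over all 99 regions the median log2 fold change between eTregs and cTregs was -0.03 in controls and 0.04 in Atg14-deficient cells, near the -0.01 and 0.02 of all tested regions. By locus, the median at Lag3 was 0.06 in controls and 0.37 in Atg14-deficient cells, and at Havcr2 -0.11 and 0.26. At Pdcd1 the median was 0.51 in controls and 0.23 in Atg14-deficient cells, and at Tigit 0.28 and 0.15. Both medians were below 0 at Btla (-0.41 and -0.60), Cd96 (-0.39 and -0.88) and Cd200 (-0.42 and -0.77); these 3 genes, like Tigit, lie on chromosome 16. In Atg14-deficient cells the log2 fold change was above 0 in 1 of 10 Btla regions, 1 of 8 Cd96 regions and 1 of 8 Cd200 regions, against 31699 of the 61366 tested. Entpd1 (0.09 and -0.09) and Nt5e (0.00 and 0.06) had medians near 0. Neighbouring regions of a locus are not independent, and no test was made over a locus.

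**Figure D1:**
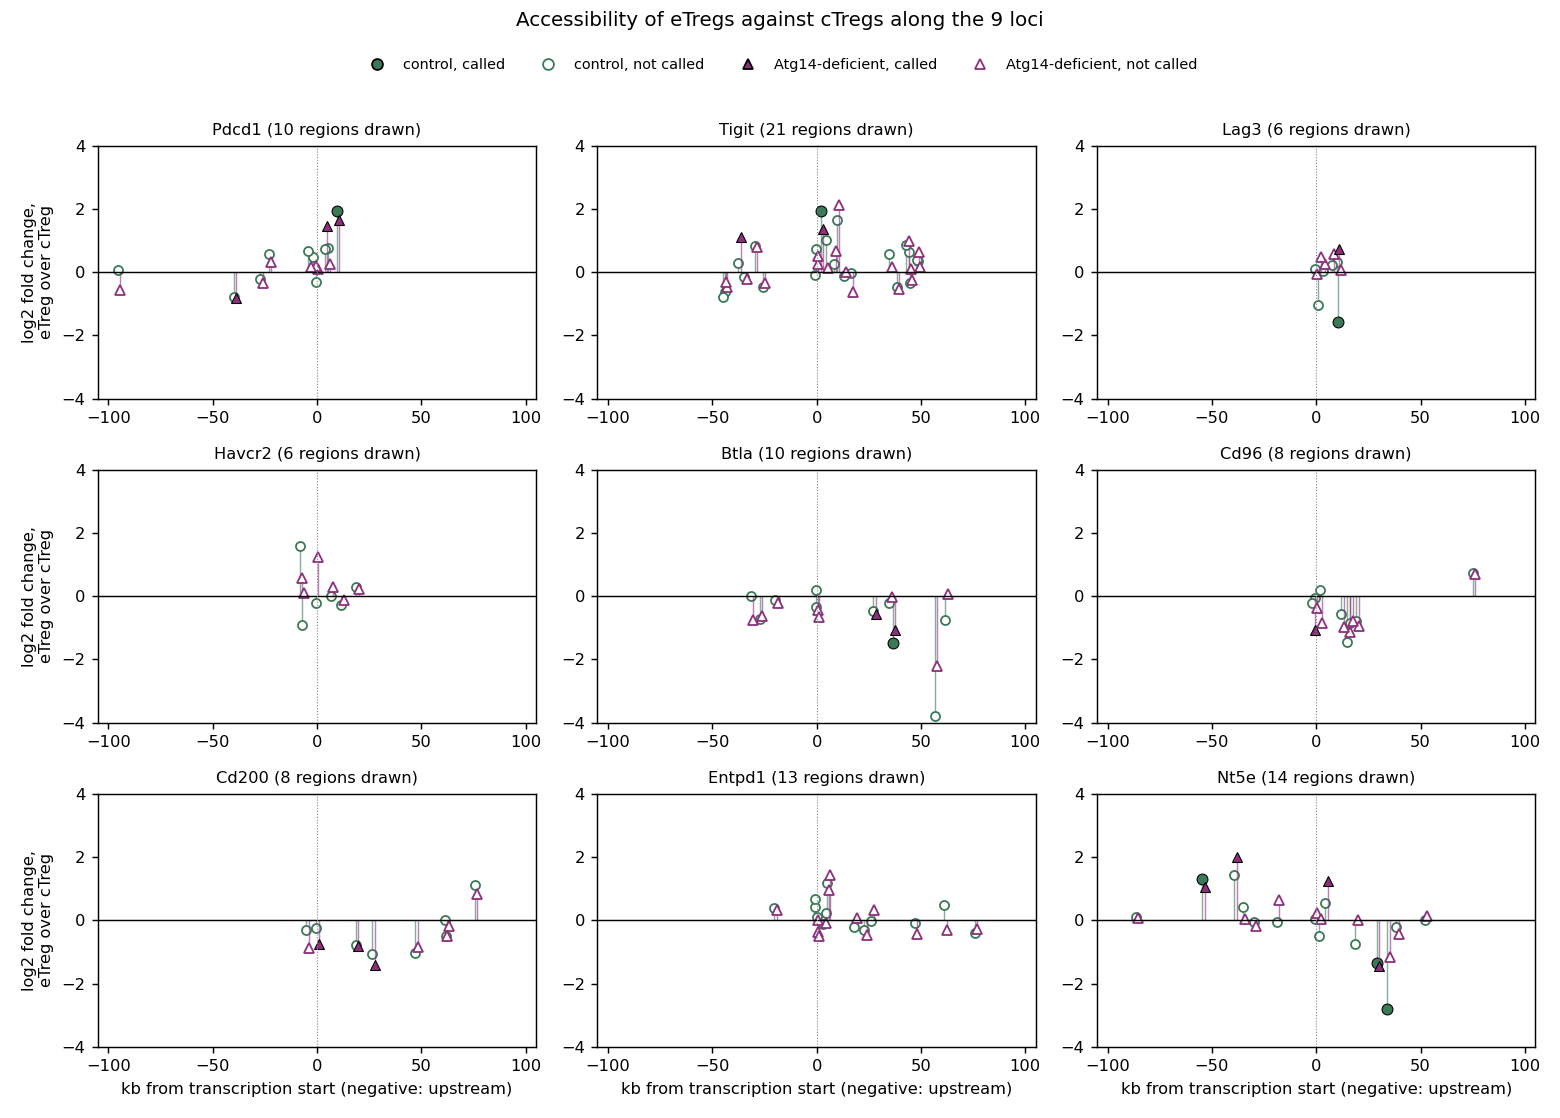
Log2 fold change of eTregs over cTregs (y axis) against the distance of each tested region from the nearest start of its gene in kb (x axis, negative upstream), in controls (circles) and Atg14-deficient cells (triangles), with filled symbols for called regions and the genotypes set slightly apart on the x axis. Pdcd1 and Tigit show called regions above 0 within 10.1 kb downstream of the start, Btla, Cd96 and Cd200 lie mostly below 0, and Nt5e has called regions on both sides of 0; 3 regions beyond 100 kb are not drawn.

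Of the 11 regions that hold a transcription start, 1 was called in either cell state comparison, against 8 of 41 elsewhere within a gene and 9 of 47 outside it. The difference between these shares was not tested. Over all tested regions, whatever their place, the rule called 11.8% in either genotype, and that share is not given by place. The start regions were more accessible, with a median of 18.5 CPM against 10.0 within genes and 7.18 outside.

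PD-1 is the receptor most studied on activated T cells. The intronic region 10.1 kb into Pdcd1 (chr1:94042187-94042741, 555 bases) had 2.93, 5.27 and 2.67 CPM in control cTregs and 13, 16.3 and 13.9 in control eTregs. In Atg14-deficient cells it had 8.82, 3.89, 1.58 and 7.39 CPM in cTregs and 25.8, 14.2, 9 and 17.5 in eTregs. Every eTreg library was above every cTreg library of its genotype. The eTreg level was 3.83-fold higher in controls (log2 fold change 1.94 ± 0.45, SE; adjusted p = 0.0108 in edgeR) and 3.15-fold higher in Atg14-deficient cells (SE of the log2 fold change 0.38; adjusted p = 0.0068). The call in controls was lost without control cTreg replicate 1 (adjusted p = 0.0776 in edgeR), and that in Atg14-deficient cells remained without any 1 library.

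A weaker intronic region 4.3 kb into Pdcd1 (chr1:94048102-94048307) rose in Atg14-deficient eTregs, from 2.44 ± 1.46 CPM in cTregs to 6.80 ± 1.75 (SD, n = 4), with a log2 fold change of 1.44 ± 0.42 (SE; adjusted p = 0.027 in edgeR). In controls it had 4.10 ± 0.872 CPM in cTregs and 7.02 ± 0.661 in eTregs (SD, n = 3), with an adjusted p of 0.366, although the libraries did not overlap. An upstream region at -39.4 kb (chr1:94091707-94092173) went the other way: it fell from 35.6 ± 6.67 to 20.1 ± 8.82 CPM in Atg14-deficient cells (log2 fold change -0.81 ± 0.24; adjusted p = 0.0281 in edgeR) and had 24.4 ± 4.78 and 14 ± 0.921 CPM in controls (adjusted p = 0.103). The first of these calls was lost without Atg14-deficient cTreg replicate 1 or 3 or eTreg replicate 2 or 4 (adjusted p up to 0.103), and the upstream call without cTreg replicate 1, 2 or 3 or eTreg replicate 2 or 4 (up to 0.124). The upstream region also missed the threshold with GC content offsets (adjusted p = 0.0535) and with counts thinned to the smallest total (0.0684), and its difference in controls passed with the mouse as a block (0.0183). By contrast the region at the Pdcd1 start (chr1:94052381-94052749) stayed between 14.3 and 24.7 CPM in all 14 libraries, with overlapping groups in every comparison, and the most accessible region of the locus, 26.7 kb upstream (chr1:94079109-94079474), had group means from 38.4 to 50.7 CPM, neither passing the test.

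TIGIT, which outcompetes CD226 for their shared ligands, marks Tregs with strong suppressive activity. The intronic region 2.5 kb into Tigit (chr16:43661517-43661888, 372 bases) had 5.87, 9.33 and 4.46 CPM in control cTregs and 25.0, 24.9 and 27.8 in control eTregs. Atg14-deficient cTregs had 11.8, 5.45, 6.84 and 11.2 CPM and eTregs 21.6, 17.6, 27.0 and 23.4. Again no eTreg library reached down to the cTreg range in either genotype. The log2 fold change was 1.94 ± 0.30 (SE) in controls, a 3.83-fold difference with an adjusted p of 0.000438 in edgeR, and 1.36 ± 0.26 in Atg14-deficient cells, a 2.56-fold difference with an adjusted p of 0.00168. It is the only region of the 9 loci whose call held in both genotypes without any 1 library and under every other alternative tried.

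The region at a Tigit start (chr16:43663995-43664660), the most accessible of all 102, had group means of 74.7 ± 13.3, 74.1 ± 9.76, 70.3 ± 8.49 and 87.6 ± 22.2 CPM in control cTregs, Atg14-deficient cTregs, control eTregs and Atg14-deficient eTregs (SD). Its groups overlapped in each comparison, and its adjusted p between states was 0.823 in controls and 0.323 in Atg14-deficient cells in edgeR. The region at another Tigit start (chr16:43664917-43665185) was weaker and had 9.16 ± 1.31 CPM in control cTregs and 15.2 ± 1.21 in control eTregs, which did not pass (adjusted p = 0.169). An upstream region at -37.0 kb (chr16:43701973-43702309) rose in Atg14-deficient eTregs from 5.55 ± 0.908 to 12.1 ± 2.27 CPM (log2 fold change 1.12 ± 0.33; adjusted p = 0.0276 in edgeR), a call lost without cTreg replicate 2 or 3 or eTreg replicate 1 or 3 of that genotype (adjusted p up to 0.0761). In controls it had 8.22 ± 3.55 and 9.79 ± 2.96 CPM. Of the Tigit regions, 6 of those tested lie within the neighbouring gene Zbtb20, and none of these was called.

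LAG-3 resembles CD4 in structure and shares its ligand. Past the 3′ end of the gene, 10.5 kb from its start, lies the most accessible of its 6 regions (chr6:124900938-124901504). It rose in Atg14-deficient eTregs, from 14.3 ± 3.61 to 23.4 ± 4.61 CPM, without overlap (log2 fold change 0.71 ± 0.23, SE; adjusted p = 0.0463 in edgeR), and had 16.7 ± 4.58 and 21.2 ± 2.73 CPM in controls (adjusted p = 0.527). This call stood near the threshold and was lost without any of 11 of the 14 libraries: all but Atg14-deficient cTreg replicate 4 and control cTreg replicates 2 and 3 (adjusted p up to 0.179). It was also lost with thinned counts (0.063) and with only the groups compared (0.055).

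A small neighbour of 200 bases (chr6:124900469-124900668) had 7.33, 6.94 and 3.57 CPM in control cTregs and 1.63, 1.31 and 2.88 in control eTregs. In Atg14-deficient cells it had 7.98, 3.11, 4.21 and 5.14 CPM in cTregs and 5.69, 5.44, 4.76 and 5.14 in eTregs. Control eTregs were thus below each of the other 3 groups without overlap. The fall in control eTregs had a log2 fold change of -1.58 ± 0.48 (SE, adjusted p = 0.0482 in edgeR). The call was lost without any of 9 libraries (adjusted p up to 0.193). These were control cTreg replicate 1 or 2, control eTreg replicate 1 or 2, Atg14-deficient cTreg replicate 3 or 4, or Atg14-deficient eTreg replicate 1, 3 or 4. It missed the threshold under 7 of 12 other alternatives, and over all 12 the adjusted p ran from 0.0394 to 0.0741. In Atg14-deficient cells the log2 fold change was 0.05 ± 0.40. The control eTreg values rest on 5, 5 and 16 counts. At the Lag3 start (chr6:124911528-124911926) the group means lay between 5.86 and 8.15 CPM.

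Havcr2, the gene of TIM-3, had no called region between states, with adjusted p in edgeR from 0.12 to 0.988 over its 6 regions in controls and from 0.083 to 0.864 in Atg14-deficient cells. Its most accessible region, 12.2 kb into the gene (chr11:46466866-46467346), had 10.0, 21.5 and 2.67 CPM in the 3 control cTreg libraries, a spread that covered every other group. The region at the start (chr11:46454656-46455076) had group means from 4.83 to 11.6 CPM.

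Btla, Cd96 and Cd200 lost accessibility where they changed. BTLA binds HVEM, a member of the TNF receptor family. The region 37.2 kb from the Btla start and past the gene's 3′ end (chr16:45261298-45261831, 534 bases) had 25.4, 12.7 and 32.1 CPM in control cTregs and 8.46, 5.25 and 10.8 in control eTregs. Atg14-deficient cTregs had 22.7, 24.9, 24.2 and 20.6 CPM and eTregs 8.99, 11.7, 18.5 and 4.62. In both genotypes all eTreg libraries were below all cTreg libraries. The log2 fold change was -1.47 ± 0.37 (SE) in controls (adjusted p = 0.0208 in edgeR) and -1.07 ± 0.32 in Atg14-deficient cells (adjusted p = 0.033). The control call was lost without control cTreg replicate 1 or 3 or control eTreg replicate 1 or 2 (adjusted p up to 0.102), and the Atg14-deficient call without cTreg replicate 1, 2 or 3 or eTreg replicate 1 or 4 (up to 0.114), with GC content offsets (0.0575) and with counts thinned to the smallest total (0.0717).

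The most accessible region of the locus, in the noncoding part of a Btla exon (chr16:45251713-45252533), fell from 59.6 ± 5.35 to 40.0 ± 5.22 CPM in Atg14-deficient cells (log2 fold change -0.58 ± 0.15; adjusted p = 0.0129 in edgeR), and with GC content offsets its log2 fold change was -0.49, short of the fold cutoff. It had 47.2 ± 5.11 and 34.1 ± 6.84 CPM in controls, without overlap and with an adjusted p of 0.112. At the Btla start (chr16:45223586-45224285) the means were 31.2 ± 4.50 and 24.2 ± 3.04 CPM in control cTregs and eTregs, which did not pass. A weak region at 57.3 kb (chr16:45281504-45281754), outside the naming rule and named after its values were seen, had 8, 12 and 8 counts in control cTregs and 0, 2 and 0 in control eTregs, with an adjusted p of 0.0534.

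CD96 shares CD155 with TIGIT and CD226. Its start region (chr16:46119995-46120509), also the most accessible of the locus, had means of 30.8 ± 6.71 and 30.4 ± 6.19 CPM in control cTregs and eTregs and 36.5 ± 8.11 and 28.3 ± 9.50 in Atg14-deficient ones. A region 1.3 kb upstream (chr16:46121428-46121696) had 13.4, 15.6, 10.5 and 7.07 CPM in Atg14-deficient cTregs and 4.79, 6.69, 7.41 and 3.08 in eTregs. The groups overlapped in 1 library of each. The region fell with a log2 fold change of -1.08 ± 0.35 (SE; adjusted p = 0.0438 in edgeR), a call lost without cTreg replicate 1, 2 or 3 or eTreg replicate 1 or 4 of that genotype or without control cTreg replicate 1 (adjusted p up to 0.15) and with GC content offsets (0.0548). In controls it had 7.52 ± 0.713 and 6.44 ± 2.58 CPM.

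CD200 is carried by many activated lymphocytes and restrains myeloid cells through CD200R1. Unlike the other loci, its start region (chr16:45408391-45409169, 779 bases, which overlaps the promoter printed above) was called: Atg14-deficient cTregs had 33.6, 40.5, 30.8 and 38.5 CPM and eTregs 19.8, 31.0, 20.6 and 15.4. Only eTreg replicate 2 reached the cTreg range. The log2 fold change was -0.74 ± 0.20 (SE; adjusted p = 0.0174 in edgeR) and the call was lost without cTreg replicate 2 or eTreg replicate 1 or 4 (adjusted p up to 0.0753). In controls the values were 25.2, 21.1 and 25.9 CPM in cTregs and 18.2, 22.6 and 19.1 in eTregs, which overlapped (adjusted p = 0.581).

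An intronic region 19.2 kb into Cd200 (chr16:45389491-45390216) had 28.8 ± 1.82 and 16.6 ± 2.30 CPM in control cTregs and eTregs, without overlap, and missed the threshold (log2 fold change -0.79 ± 0.25; adjusted p = 0.0563 in edgeR). In Atg14-deficient cells it fell from 32.5 ± 6.98 to 18.8 ± 6.06 CPM (-0.80 ± 0.22; adjusted p = 0.0168). The control difference passed when Atg14-deficient cTreg replicate 2 or eTreg replicate 2 or 4 was left out (adjusted p down to 0.0364), with only the groups compared (0.0424), with halved counts (0.0438) and with the mouse as a block (0.0144), and the Atg14-deficient call was lost without cTreg replicate 1 or eTreg replicate 1 or 4 (up to 0.074). At the 3′ end of the gene (chr16:45381869-45382166) a region fell from 9.99 ± 1.94 to 3.74 ± 2.49 CPM in Atg14-deficient cells (-1.42 ± 0.44; adjusted p = 0.0384 in edgeR) and had 8.23 ± 2.42 and 3.59 ± 2.9 CPM in controls (adjusted p = 0.221). That call was lost without any 1 Atg14-deficient cTreg library or without eTreg replicate 1 or 4 (up to 0.136).

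Of the ectonucleotidases, CD39 acts first. Entpd1 spans 129.2 kb and all 13 of its regions lie within it, 2 of them at starts. None was called between states, with adjusted p in edgeR from 0.39 to 0.983 in controls and from 0.17 to 0.997 in Atg14-deficient cells. Its most accessible region, an intronic one of 1451 bases at 18.6 kb (chr19:40678588-40680038), had 51.3, 42.4 and 43.2 CPM in control cTregs and 35.1, 43.0 and 41.1 in control eTregs. Atg14-deficient cells had 43.8 ± 10.2 CPM in cTregs and 45.8 ± 5.16 in eTregs, and all 4 groups overlapped.

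CD73 completes the step to adenosine, and 5 of the 15 tested Nt5e regions were called in either genotype, in both directions, where the rule called 11.8% of all tested regions in either genotype. The other loci had 3 of 12 (Pdcd1), 2 of 21 (Tigit), 2 of 6 (Lag3), 0 of 6 (Havcr2), 2 of 10 (Btla), 1 of 8 (Cd96), 3 of 8 (Cd200) and 0 of 13 (Entpd1). Upstream at -54.1 kb (chr9:88273281-88273693), control cTregs had 7.33, 7.66 and 2.67 CPM and control eTregs 16.9, 15.2 and 14.1. Atg14-deficient cTregs had 7.56, 5.45, 6.31 and 11.6 CPM and eTregs 16.8, 14.2, 18.5 and 14.4. The states did not overlap in either genotype. eTregs were 2.48-fold higher in controls (log2 fold change 1.31 ± 0.34, SE; adjusted p = 0.0206 in edgeR) and 2.06-fold higher in Atg14-deficient cells (1.04 ± 0.29; adjusted p = 0.0217). The control call was lost without control cTreg replicate 1 or 3 or control eTreg replicate 1 or 2 (adjusted p up to 0.102), and the other without Atg14-deficient cTreg replicate 2 or 3 or eTreg replicate 1 or 3 (up to 0.0842).

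In an intron 29.6 kb into Nt5e the change was opposite. This region (chr9:88356995-88357513) had 18.1, 13.4 and 16.9 CPM in control cTregs and 7.16, 4.99 and 6.85 in control eTregs. Atg14-deficient cTregs had 13, 15.6, 21.6 and 20.6 CPM and eTregs 7.19, 5.86, 7.41 and 5.65. The lowest cTreg library was above the highest eTreg library in each genotype. eTregs were 2.54-fold lower in controls (log2 fold change -1.34 ± 0.30; adjusted p = 0.0088 in edgeR) and 2.71-fold lower in Atg14-deficient cells (-1.44 ± 0.27; adjusted p = 0.00111). The control call was lost without control cTreg replicate 1 (adjusted p = 0.0595) or control eTreg replicate 2 (0.0513), and the other remained without any 1 library.

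Another intronic region at 34.7 kb (chr9:88362164-88362424) had 34, 14 and 18 counts in control cTregs and 0, 2 and 10 in control eTregs, that is, 6.56 ± 2.78 and 0.776 ± 0.927 CPM (SD, n = 3). It fell in control eTregs with a log2 fold change of -2.80 ± 0.72 (SE; adjusted p = 0.0215 in edgeR), a size that rests on few counts and lay between -4.33 and -2.36 when single libraries were left out. Without control cTreg replicate 1 or 3 or control eTreg replicate 1 or 2 the call was lost (adjusted p up to 0.106). Without control eTreg replicate 3 the log2 fold change was -4.33. In Atg14-deficient cells the means were 6.29 ± 3.78 and 2.85 ± 1.46 CPM (adjusted p = 0.19).

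In Atg14-deficient cells 2 further Nt5e regions rose in eTregs. The intronic one at 5.0 kb (chr9:88332420-88332872) had 9.24, 12.5, 15.2 and 5.78 CPM in cTregs and 20.7, 30.1, 40.0 and 11.8 in eTregs, with eTreg replicate 4 inside the cTreg range. Its log2 fold change was 1.24 ± 0.33 (SE; adjusted p = 0.0175 in edgeR), and the call was lost without cTreg replicate 1 or eTreg replicate 3 (adjusted p up to 0.0743). In controls it had 19.5 ± 3.14 and 28.3 ± 9.68 CPM (adjusted p = 0.42). The other, at -38.7 kb (chr9:88288711-88289058), lies outside the naming rule and was named after its values were seen: it rose from 1.31 ± 0.344 to 5.58 ± 3.03 CPM (log2 fold change 2.00 ± 0.59; adjusted p = 0.0287 in edgeR), a call lost without cTreg replicate 1, 2 or 3 or eTreg replicate 2 (up to 0.0959). The region at the Nt5e start (chr9:88327325-88327942) had group means of 45.4, 41.7, 46.4 and 49.3 CPM in the order of groups given for Tigit. The most accessible one, 52.6 kb from the start and within the neighbouring gene Snx14 (chr9:88379994-88380517), had means from 48.0 to 54.7 CPM, and neither passed.

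**Figure D2:**
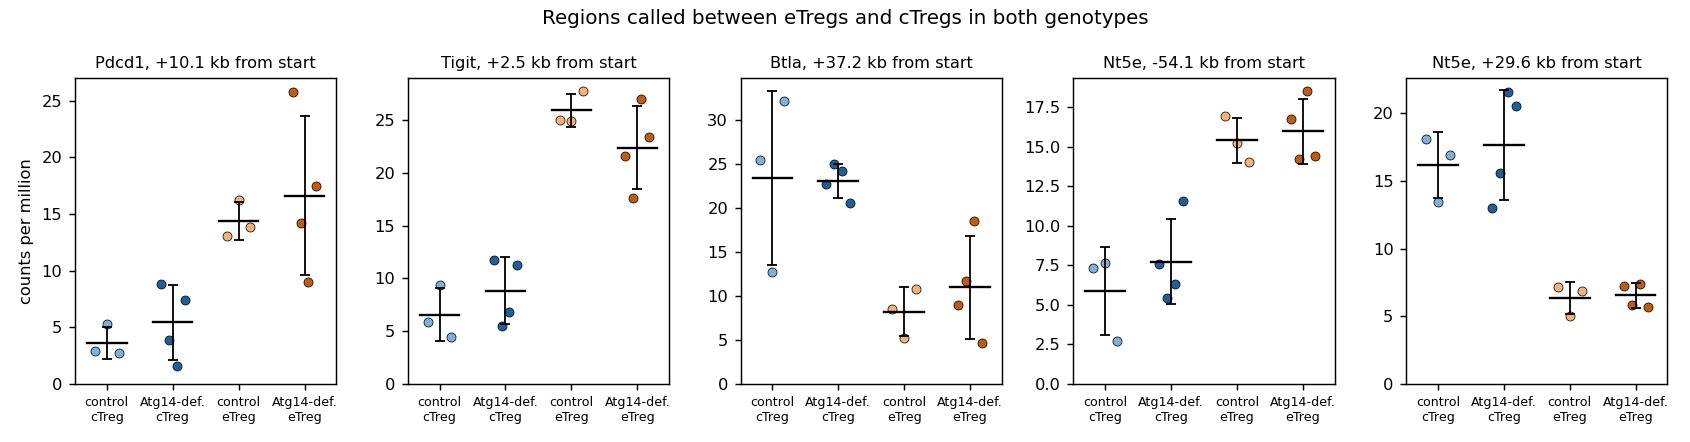
CPM (y axis) of each library in the 4 groups for the 5 regions called between eTregs and cTregs in both genotypes, with the mean (line) and SD (bars) of each group. The eTreg libraries lie above the cTreg libraries of their genotype at Pdcd1, Tigit and the upstream Nt5e region, and below them at Btla and the intronic Nt5e region.

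**Figure D3:**
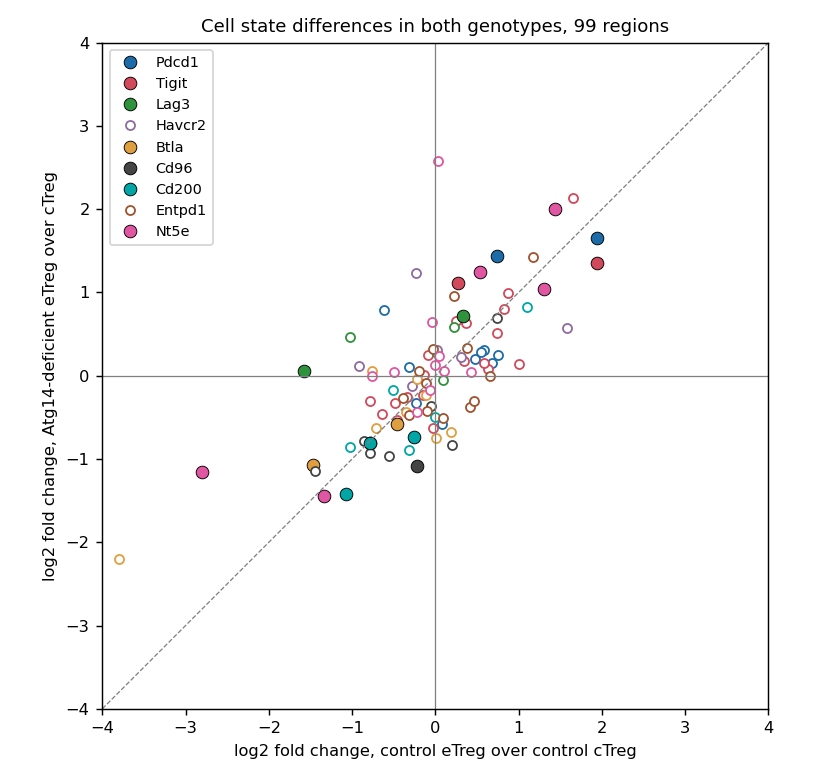
Log2 fold change of eTregs over cTregs in Atg14-deficient cells (y axis) against that in controls (x axis) for the 99 tested regions, coloured by locus, with filled points for the 18 regions called in either comparison. The sign is the same in 77 of the 99 regions, and the dashed line marks equal values. How many of all tested regions share a sign was not counted.

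The second comparison asked what loss of Atg14 changed. No region of the 9 loci passed the adjusted threshold in eTregs or in cTregs (smallest adjusted p in edgeR 0.434 and 1.0; DESeq2 also called 0 in each), where the rule called 0.0228% of all tested regions in eTregs and 0.0163% in cTregs. At an unadjusted p below 0.05 with the same fold cutoff, 4 of 99 regions were more accessible in Atg14-deficient eTregs and 0 less accessible, near the 4.59% and 1.77% of all tested regions. In cTregs 5 were more and 2 less accessible, where all tested regions gave 1.99% and 1.35%. DESeq2 gave 3 and 6 regions at this threshold in eTregs and cTregs, where it gave 6.26% and 3.54% of all tested regions. Over the 99 regions the median log2 fold change was 0.07 in each cell state, against 0.06 and 0.03 for all tested regions.

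The count in eTregs was 8 without control eTreg replicate 2, where the whole table's share went from 6.36% to 7.71%. In cTregs it was 4 without Atg14-deficient cTreg replicate 2, 4 without control cTreg replicate 1 and 3 without control cTreg replicate 2, where that share went from 3.34% to 4.02%, 3.33% and 4.32%.

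Among the 5 regions with the smallest p in eTregs, 2 lie at Lag3 and had no overlap between the eTreg genotypes. The eTreg genotypes also did not overlap at the Tigit region at 10.2 kb, the Btla region at -26.7 kb and the Nt5e region at -18.3 kb. These were named after their values were seen. How many of all tested regions lack overlap was not counted, so the separation is a description only. The region in a coding exon 1.5 kb into the gene (chr6:124910116-124910338) had 1.3, 1.84 and 1.26 CPM in control eTregs, from 4, 7 and 7 counts, and 3.00, 7.53, 4.24 and 5.14 CPM in Atg14-deficient eTregs, from 10, 18, 16 and 20. Its log2 fold change was 1.73 ± 0.56 (SE; unadjusted p = 0.00453 and adjusted p = 0.434 in edgeR). For the small region past the 3′ end, whose values are given above, it was 1.37 ± 0.46 (unadjusted p = 0.00595, adjusted p = 0.457 in edgeR). Over all 6 Lag3 regions the median log2 fold change between genotypes was 0.41 in eTregs and 0.06 in cTregs.

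Upstream of Tigit at -25.3 kb (chr16:43690130-43690773), control eTregs had 22.1, 35.2 and 23.3 CPM and Atg14-deficient eTregs 49.1, 23.4, 40.8 and 40.1, which overlap (log2 fold change 0.53 ± 0.21; unadjusted p = 0.0179 in edgeR, adjusted p = 0.539). At Nt5e, the intronic region at 1.8 kb (chr9:88329121-88329716) had 34.8, 26.8 and 41.1 CPM against 46.1, 46.4, 49.0 and 40.3 (0.40 ± 0.17, under the fold cutoff; unadjusted p = 0.0244, adjusted p = 0.566 in edgeR), and without control eTreg replicate 2 its log2 fold change was 0.25. The region at 34.7 kb had 0, 0.525 and 1.80 CPM against 1.20, 4.18, 3.97 and 2.05 (1.60 ± 0.73; unadjusted p = 0.0366, adjusted p = 0.593 in edgeR), and without control eTreg replicate 3 its log2 fold change was 3.13. In each of these 3 regions the genotypes overlapped.

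In cTregs the smallest p belonged to the Cd200 start region, where control cTregs had 25.2, 21.1 and 25.9 CPM and each Atg14-deficient cTreg library, at 30.8 or above, was higher (log2 fold change 0.58 ± 0.22, SE; unadjusted p = 0.0115 in edgeR). At 1 of the Entpd1 starts (chr19:40659972-40660317) the values were 4.40, 2.63 and 1.78 CPM against 7.14, 6.62, 7.36 and 4.18 (1.04 ± 0.42; unadjusted p = 0.0197 in edgeR), overlapping in 1 library of each. The Nt5e region at 5.0 kb was lower in all Atg14-deficient cTregs, with 22.2, 20.1 and 16.1 CPM in controls (-0.86 ± 0.35; unadjusted p = 0.0215 in edgeR). Just inside Btla at 0.5 kb (chr16:45224622-45225051) control cTregs had 15.6, 23.5 and 17.4 CPM and Atg14-deficient ones 34.0, 18.3, 36.5 and 28.3 (0.63 ± 0.26; unadjusted p = 0.0219). At the Havcr2 start the values were 12.2, 13.6 and 7.13 CPM against 3.36, 0.779, 6.84 and 8.35 (-1.16 ± 0.49; unadjusted p = 0.0258), and the last 2 regions overlapped between genotypes. All 5 had an adjusted p of 1.0 in edgeR.

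**Figure D4:**
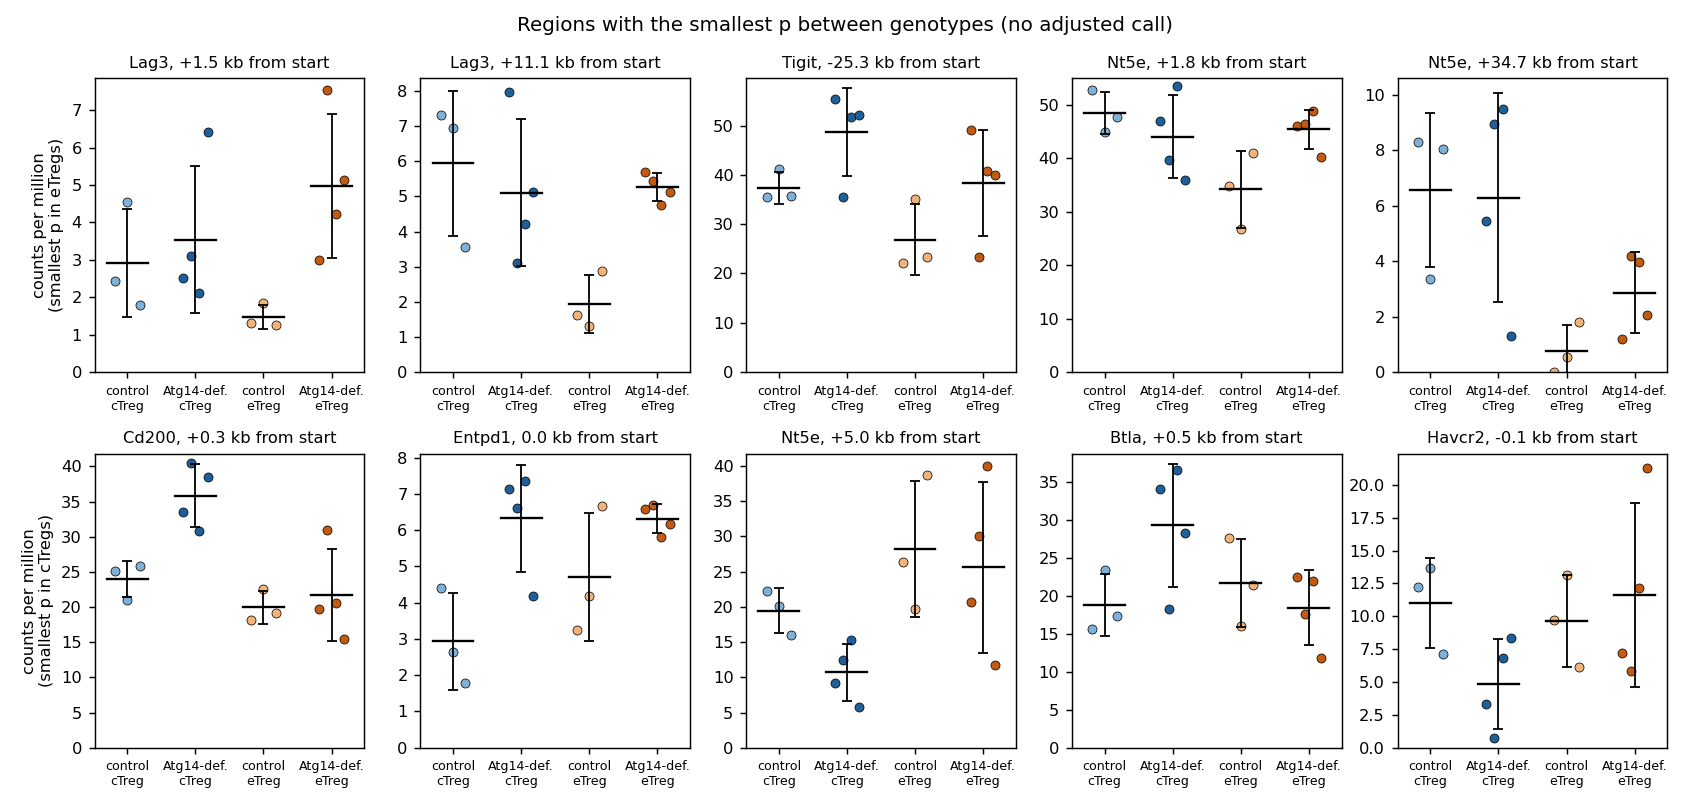
CPM (y axis) of each library in the 4 groups for the 5 regions with the smallest p between genotypes in eTregs (upper row) and in cTregs (lower row), with the mean (line) and SD (bars, cut at 0). No region passed the adjusted threshold. Among the regions drawn, the eTreg genotypes are apart only at the 2 Lag3 regions, and the cTreg genotypes only at the Cd200 start and the Nt5e region at 5.0 kb.

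The third comparison tested whether the genotype effect differed between eTregs and cTregs, which is also the difference of the cell state effect between genotypes. No region of the 9 loci passed the adjusted threshold (smallest adjusted p in edgeR 0.9999; DESeq2 called 0), and 0% of all tested regions did. At the unadjusted threshold 5 of 99 regions passed, against 3.05% of all tested regions, and these were named after their values were seen. The small Lag3 region past the 3′ end had a difference of 1.63 ± 0.62 (log2, SE; unadjusted p = 0.0136 in edgeR). The Havcr2 start region had 1.47 ± 0.67 (unadjusted p = 0.0384), and a second Havcr2 region 6.8 kb upstream (chr11:46447637-46448592) had 1.03 ± 0.46 (unadjusted p = 0.0318). At Btla the region at 0.5 kb had -0.86 ± 0.37 (unadjusted p = 0.0263) and at Nt5e the region at 1.8 kb had 0.54 ± 0.24 (unadjusted p = 0.0318). Of the 5, 4 had a higher genotype effect in eTregs than in cTregs, and Btla a lower one. Over all tested regions the same rule gave 1169 with a higher and 702 with a lower effect in eTregs.

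Ligands, competitors and downstream genes of these pathways were examined by a list of 24 genes, of which 23 had a region. Of their 134 tested regions, 1 was more and 10 were less accessible in control eTregs than in control cTregs, and 4 more and 18 less in Atg14-deficient cells. Over all tested regions the shares were 2.01% more and 3.29% less in controls and 4.41% and 5.40% in Atg14-deficient cells. These calls fell in 8 genes, and 0 regions passed the adjusted threshold between genotypes in either cell state in edgeR. Enpp1, an ectoenzyme that hydrolyses nucleotides, had a region 8.1 kb upstream (chr10:24672737-24673337) with 16.6 ± 5.68 CPM in control cTregs and 2.69 ± 0.619 in control eTregs (log2 fold change -2.67 ± 0.37; adjusted p = 0.000136 in edgeR). Cd226, the costimulatory competitor of TIGIT and CD96, had 1 region more and 4 less accessible in controls, the strongest of them falling from 50.7 ± 3.77 to 14.2 ± 0.813 CPM 16.9 kb upstream (log2 fold change -1.85 ± 0.21; adjusted p = 1.44e-05 in edgeR). Dpp4, whose product CD26 binds adenosine deaminase, had 2 regions less accessible in controls and 5 in Atg14-deficient cells. Adora2a, an adenosine receptor gene, and Pdcd1lg2, the gene of a PD-1 ligand, each had 1 region less accessible in control eTregs. In Atg14-deficient eTregs, Cd200r1 had 2 less accessible regions, Entpd5 had 1, and Ptpn11, which encodes the phosphatase SHP-2, had 2 more accessible ones.

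For the most accessible region of each locus, the 3 regions of other genes with the most similar pattern over the 14 libraries were looked up by the correlation of their log2 CPM. Pearson's r of these 27 regions lay between 0.81 and 0.96. They share the libraries and their depth with the region they resemble, so r is given as a description. Of the 27, 1 belonged to a gene of the lists, a region of Il2ra (chr2:11653351-11653750), the gene of the IL-2 receptor alpha chain CD25, with an r of 0.90 to the Cd96 start region.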

How the data were processed

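The 14 ATAC-seq libraries were assigned to their groups by labels that match the column names. Per the methods, the authors trimmed adaptors, aligned with BWA, dropped duplicate reads, shifted read ends for Tn5, kept nucleosome-free fragments, called peaks per library with MACS2, kept those present in enough replicates and merged overlapping ones. They deposited raw counts, without normalization, of nucleosome-free reads in each merged region. Most counts are even (82.0%), as when both reads of a pair are counted. The methods name mm9 and the labels mm10 and GRCm38. All 67207 regions on chromosomes lie within GRCm38, and 26850 of 56164 protein-coding starts have a region within 200 bases (2220 when the positions were shifted), so the RefSeq annotation of GRCm38.p6 was used. The submitters' processing notes name cutadapt 1.9, Picard 1.65 and MACS2 2.1.0.20150603, not all of which match the methods. Printed positions count from 1.

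Counts were scaled by library totals, filtered with filterByExpr (61366 regions) and fitted with edgeR 4.0.16 in R 4.3.3 (limma 3.58.1) as 1 quasi-likelihood model of the 4 groups with robust estimation. Adjusted p values are Benjamini-Hochberg values over all tested regions. Calls needed an adjusted p under 0.05 and a log2 fold change larger than 0.5 in size. The study's methods use DESeq2 and state an FDR cutoff for another genotype, and for Atg14-deficient eTregs the study gives a p cutoff without naming a correction, so counts at an unadjusted p with the same fold cutoff are given too. DESeq2 1.42.0 served as an alternative. Tables, motifs and figures were made with Python 3.11.15, pandas 2.3.3, NumPy 2.4.6, pysam 0.24.0 and matplotlib 3.10.9. The fit was tested on simulated counts.

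Depth was 2242983 to 5548189 counts per library and the biological coefficient of variation 25.6%. These, and 3 or 4 libraries per group, limit the precision. Deviations of same-numbered cTreg and eTreg libraries correlated at 0.119, 0.243, 0.14 and 0.225 in Atg14-deficient cells. In controls the correlations were 0.054, 0.209 and 0.19. The ranges overlap, so they do not settle which libraries come from the same mouse. The main model used no pairing, and the mouse as a block is given as an alternative.

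A cTreg marker is not reported here. Named regions are, for each gene, the most accessible one, the one nearest its start and up to 4 further ones called between states, and the 5 with the smallest p between genotypes in each cell state. The 9 loci, the lists and the tests were chosen with earlier results of these data known. Alternatives were TMM factors, DESeq2 size factors, loess and GC content offsets, the replicate number and the mouse as a block, no filter, at least 10 counts in every library, only the groups compared, thinned counts, a log2 cutoff of 1, only regions in the gene or within 50 kb, the DESeq2 Wald test, each library left out and, chosen after seeing the data, halved counts.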

Additional observations from a re-analysis of the deposited data

Results flagged for a closer look

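In groups of 4 libraries, the 34 named regions were searched for a library whose gap to the nearest other library exceeded Dixon's 95% critical value (68 groups of 4 tested, of which chance would flag about 1 in 20; groups of 3 were not tested). A single library stood apart: Atg14-deficient eTreg replicate 4 had 30.3 CPM at the Lag3 region 10.5 kb from the start (chr6:124900938-124901504), where the other 3 libraries of its group had 20.6 to 21.8 CPM. Without it the log2 fold change of Atg14-deficient eTregs over cTregs at this region was 0.56, with an adjusted p of 0.179 in edgeR.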

How the results depend on the processing

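Of the 51 log2 fold changes examined for named and called regions, 604 of 626 values under the other alternatives, and 626 of 714 with 1 library left out, kept their direction and their side of the threshold. In controls the 7 regions called between states became 3 with at least 10 counts in every library (of 53 member regions left, and over all tested regions 6.22% of 27996) and 13 with the mouse as a block (over all tested regions 5.30% became 10.4%), although not every same-numbered control pair deviated together, and from 1 to 10 with 1 library left out. In Atg14-deficient cells the 16 regions became 22 with the mouse as a replicate block (over all tested regions 9.81% became 15.5%). With 1 library left out they became from 7 to 20. The mouse block changed no Atg14-deficient call among the 18 regions called in either genotype. Other named regions were not examined under it for this comparison. With the replicate number as a block across genotypes, 6 and 17 regions were called (over all tested regions 6.14% and 10.6%). The counts between genotypes and for the difference of genotype effects were 0 under every alternative run, including each library left out (0 to 0). At the unadjusted p, the 4 regions in eTregs became 7 with thinned counts (of 92 member regions left; over all tested regions 6.36% became 6.12%), and from 3 to 8 with 1 library left out, and the 7 in cTregs became 2 with a log2 cutoff of 1 (over all tested regions 3.34% became 1.94%), and from 3 to 8 with 1 library left out. Of the differences that were not called, 3 changed sign: the Tigit region at -37.0 kb in controls (from -0.065 without control cTreg replicate 1 to 0.49), the small Lag3 region in Atg14-deficient cells (-0.014 with GC content offsets, and from -0.11 to 0.33 with 1 library left out) and the Cd96 region 1.3 kb upstream in controls (0.058 with thinned counts, and from -0.48 to 0.049 with 1 library left out). The causes were not tested. Regions with few counts, such as the small Lag3 region and the Nt5e region at 34.7 kb, limit what this depth can show.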
